A study of Mus musculus with 8 samples.

Results

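The widest domains of acetylated histone H3 (H3ac) on day 6 of mouse embryonic stem cell differentiation were taken as the 300 widest of the 5549 H3ac peaks on chromosomes 1 to 19 and X in the deposited day 6 list, by the distance from peak start to peak end. They were between 3773 and 13613 bp wide, with a median of 4426.5 bp, against a median of 1838 bp over the other 5249 peaks. Width chose the domains, so width is a description here, as is the day 6 peak score from the same library. The domains added up to 1452 kb, and the other peaks to 10112 kb.

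The cells were 129/Ola mouse embryonic stem cells plated on gelatin and differentiated in the serum-free medium N2B27, and they were sampled on days 2, 4 and 6. Chromatin immunoprecipitation followed by sequencing (ChIP-seq) mapped H3ac on each of these days. HDAC1 was mapped on day 2 only, as a 3 FLAG-HDAC1 protein precipitated with an antibody to the FLAG tag, so the tagged protein was measured and not the endogenous one. How that protein was expressed, and from how many clones, is not stated by the labels. For every antibody and day there was 1 ChIP library with 1 input library, so the 8 libraries held no replicate. Differences between lists therefore have no replicate check and no p-value, and the 95% Wilson intervals below cover counting error over regions only. The H3ac lists as deposited shortened from 17368 peaks (day 2) to 12945 (day 4) and 5553 (day 6), and the HDAC1 list had 5286. They give no read depth, so an effect of the library and a change in the cells cannot be told apart between days. In such bulk chromatin, fewer cells with the mark and less of the mark per cell cannot be told apart either.

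Acetylation of the histone H3 tail loosens the contact of the nucleosome with DNA and is found at active promoters and enhancers. Most acetylated promoters carry the mark on the nucleosomes that flank the gene start, while broad domains run further, often over the first part of the gene or over a whole short gene. Long active domains are known from genes that define a cell type, such as developmental transcription factors, and from heavily transcribed housekeeping genes. HDAC1 is a class I histone deacetylase, the catalytic subunit of the NuRD, Sin3 and CoREST complexes, and its peaks are often found at acetylated promoters.

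Promoters of 4 protein-coding genes and 1 noncoding gene are shown first, because they stand for the kinds of domain described below. Sox2, the transcription factor of pluripotent and neural stem cells, lay in the 3rd widest domain (chr3:34647829-34657829), which held peaks of all 4 lists. Zic5, a zinc finger factor of the early neural plate, had an HDAC1 peak within 500 bp of its start. Meis1, a TALE homeodomain partner of Hox proteins, and Zic1, a zinc finger factor of the dorsal neural tube, lay in domains with day 4 and no day 2 peak. The noncoding gene 9430053O09Rik lay in the only domain with neither. Each sequence is the 250 bases before the start of the gene, read 5′ to 3′ on the strand of the gene, from RefSeq on GRCm38.p6, the assembly of mm10. Capitals mark matches, on either strand, to the GC box letters GGGCGG, the CCAAT box, the TATA box letters TATAAA or the E-box letters CACGTG.
Sox2 promoter (chr3:34649745-34649994, plus strand): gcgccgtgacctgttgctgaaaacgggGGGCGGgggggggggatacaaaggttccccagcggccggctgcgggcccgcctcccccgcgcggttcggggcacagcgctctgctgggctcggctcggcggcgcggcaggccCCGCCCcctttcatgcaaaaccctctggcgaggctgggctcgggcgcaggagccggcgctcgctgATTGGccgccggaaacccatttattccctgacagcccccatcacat
Zic5 promoter (chr14:122465659-122465908, minus strand): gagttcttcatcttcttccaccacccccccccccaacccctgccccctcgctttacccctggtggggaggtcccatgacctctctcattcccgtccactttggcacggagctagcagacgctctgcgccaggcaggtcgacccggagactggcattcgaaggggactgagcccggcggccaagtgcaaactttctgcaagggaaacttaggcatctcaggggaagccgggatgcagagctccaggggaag
Meis1 promoter (chr11:19018970-19019219, minus strand): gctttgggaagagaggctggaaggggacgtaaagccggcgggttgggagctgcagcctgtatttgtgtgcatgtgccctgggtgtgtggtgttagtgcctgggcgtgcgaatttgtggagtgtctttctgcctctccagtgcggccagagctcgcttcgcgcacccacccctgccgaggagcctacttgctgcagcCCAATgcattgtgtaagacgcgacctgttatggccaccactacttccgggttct
Zic1 promoter (chr9:91365769-91366018, minus strand): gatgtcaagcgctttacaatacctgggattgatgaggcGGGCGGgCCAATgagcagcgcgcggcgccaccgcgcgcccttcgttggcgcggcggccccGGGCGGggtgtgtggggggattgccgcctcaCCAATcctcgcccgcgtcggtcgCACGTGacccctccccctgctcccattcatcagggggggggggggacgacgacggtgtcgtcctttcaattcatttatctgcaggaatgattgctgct
9430053O09Rik promoter (chr16:77420383-77420632, minus strand): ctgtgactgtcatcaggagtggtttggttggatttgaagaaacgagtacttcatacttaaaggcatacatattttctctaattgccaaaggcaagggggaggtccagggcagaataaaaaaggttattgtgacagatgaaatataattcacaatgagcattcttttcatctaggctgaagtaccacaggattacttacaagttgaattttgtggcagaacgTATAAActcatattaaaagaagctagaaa

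The Sox2 window had a GC content of 72% and held GGGCGG at 2 places and CCAAT at 1. The Zic1 window held 2 matches to each of GGGCGG and CCAAT and 1 to CACGTG, an E-box bound by proteins such as Myc. The Meis1 window had 1 CCAAT, the Zic5 window had none of the 4 motifs, and the 9430053O09Rik window, with a GC content of 36.8%, had 1 TATAAA. No 2 matches overlapped in these windows. Over the 260 starts inside domains that the RefSeq promoter table lists, the median GC content of this window was 64.8%, against 60.8% for 3260 starts inside the other day 6 peaks and 55.6% for all 17274 protein-coding starts. The ratio of observed to expected CpG had a median of 0.836 in domains, 0.816 in the other peaks and 0.546 overall. GGGCGG was present in 64.6% (58.6 to 70.2) of the starts in domains, 63.3% in the other peaks and 43.2% overall. TATAAA was present in 5.38%, 5.55% and 12.5%, CCAAT in 35.4%, 36.0% and 36.8%, and CACGTG in 6.15%, 9.79% and 6.73%. Against all starts, those in domains thus had more GC, CpG and GGGCGG and less TATAAA, and so had those in the other day 6 peaks.

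Nearly every domain held an H3ac peak on an earlier day, in most cases more than 1 on a given day. A day 2 peak overlapped 266 of the 300 domains (88.7%, 84.6 to 91.8) and a day 4 peak overlapped 296 (98.7%, 96.6 to 99.5). Over all 5549 day 6 peaks these shares were 79.6% and 81.2%. A wider region has more room for an overlap, so the shares were also taken in a 1 kb window at the centre of each peak. This window reaches past the ends of peaks narrower than 1 kb, the narrowest being 352 bp. In the window a day 2 peak was present in 79.3% (74.4 to 83.5) of domains and 78.2% (77.0 to 79.3) of the other peaks, which did not differ beyond counting error. A day 4 peak was present there in 93.7% (90.3 to 95.9) of domains and 79.9% (78.8 to 81.0) of the other peaks. The next 300 peaks by width were close to the domains on day 4, with 96.7% in the central 1 kb, and had more on day 2, with 89.7%.

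In all, 596 overlaps with day 2 peaks and 605 with day 4 peaks were counted, a mean of 1.99 and 2.02 per domain, and a peak that bridged neighbouring domains counted in both. On day 2, 34 domains held no peak, 65 held 1, 102 held 2, 73 held 3, 23 held 4, 2 held 5 and 1 held 6. On day 4, 4 domains held no peak, 84 held 1, 135 held 2, 58 held 3, 18 held 4 and 1 held 5. Domains with at least 2 peaks made up 67.0% on day 2 and 70.7% on day 4, and 22.7% and 17.1% of the other peaks had as many. Per length the order turned: day 2 peaks numbered 4.10 per 10 kb of domain and 5.43 per 10 kb of the other peaks, and day 4 peaks 4.17 and 5.11. A peak that shares only 1 bp counts in full, so a shorter region raises this number by itself. Within the domains the day 2 number was 3.63 in the 100 widest and 4.81 in the 100 least wide. The largest single peak inside a domain had a median width of 1347.5 bp on day 2 and 1848 bp on day 4, against 873 and 1005.5 bp in the other day 6 peaks. It was at most 4750 bp on day 2 and 7843 bp on day 4.

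**Figure D1:**
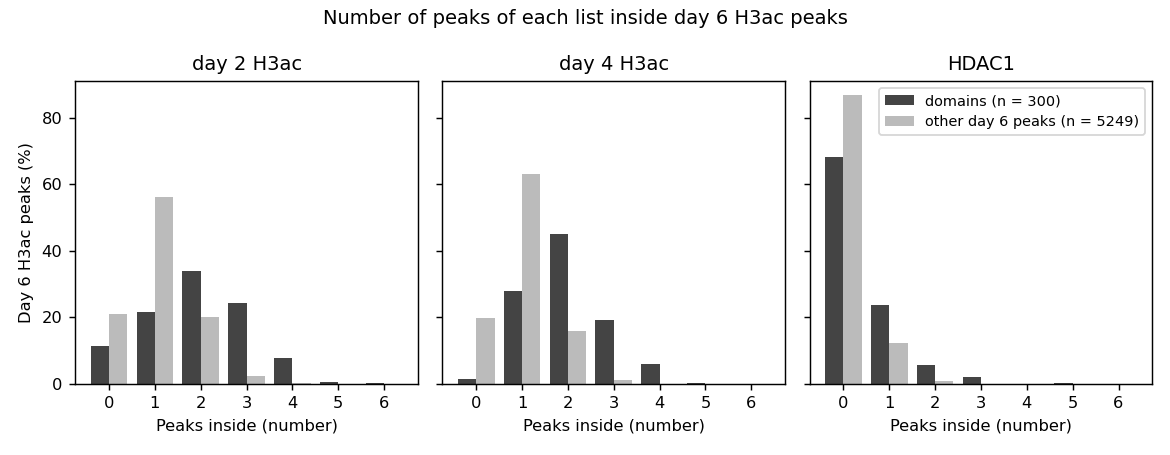
Bars give the percent of day 6 H3ac peaks (y axis) that hold a given number of day 2 H3ac, day 4 H3ac or HDAC1 peaks (x axis), for the 300 domains (dark) and the 5249 other day 6 peaks (light). The most frequent number in domains was 2 on both days, with 34.0% of domains on day 2 and 45.0% on day 4, and 1 in the other peaks, while 205 domains held no HDAC1 peak.

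Day 2 peaks covered 45.1% of the bases of the domains and day 4 peaks covered 60.8%. In the other day 6 peaks the cover was 46.5% and 51.4%, and in the next 300 peaks by width it was 51.9% and 60.6%. The day 4 cover of the domains was thus close to that of the peaks next in width, and their day 2 cover was lower. The median domain was covered to 50.5% on day 2 (quartiles 21.8 and 68.1) and to 62.0% on day 4 (49.4 and 74.8). Day 4 cover exceeded day 2 cover in 206 domains (68.7%) and was below it in 93. It was the higher of the 2 in 61.0% of the next 300 peaks by width and in 51.8% of all the other peaks. The difference between days was widest among the 100 widest domains, at 40.5% on day 2 and 62.5% on day 4, and narrowest among the 100 least wide, at 49.6% and 56.2%. In 35 domains the day 4 cover was at least 50 percentage points above the day 2 cover, and in none was the reverse seen. The same count is not given here for the other day 6 peaks, so it is not shown to be particular to the domains. These 35, chosen by that difference, included domains over Hoxa2, Hoxa3, Hoxb2, Meis1, Meis2 and Pknox2, as well as over Tnrc18, Purb, Col2a1, Ddr1 and Zfp36l1, and 20 of them held a day 2 peak. A member of the Hox, TALE or neural progenitor lists lay under 12 of the 35 and under 23 of all 300 domains. Among the domains covered most on day 2 were those of Gapdh, the glycolytic enzyme, with 95.9% on day 2 and 86.2% on day 4, and of Brd2, a reader of acetylated histones, with 94.6% and 85.8%. The lists differ in length, and with the 5282 top-scoring peaks of each list the domains were covered to 35.3% (day 2) and 51.7% (day 4), and the other peaks to 31.4% and 36.8%.

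**Figure D2:**
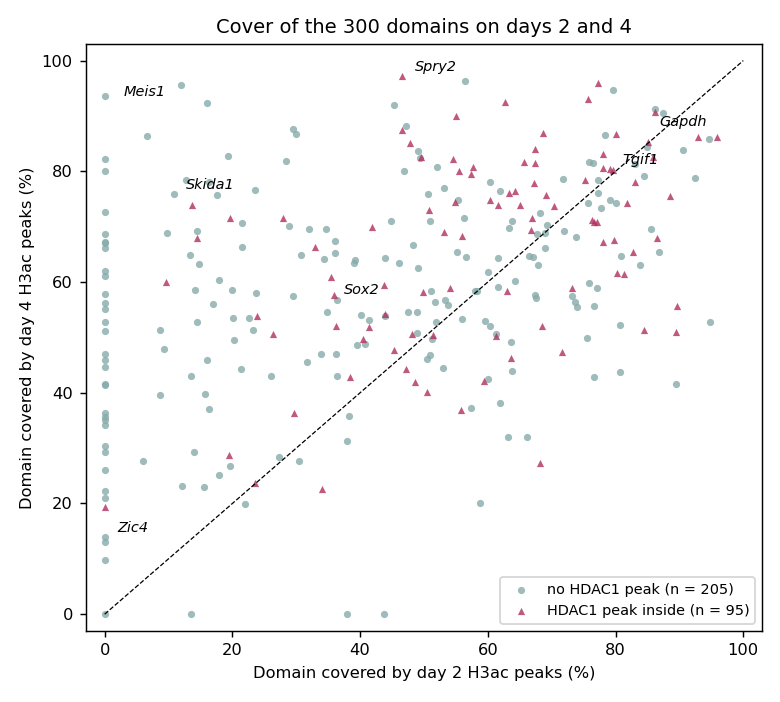
Each point is 1 of the 300 domains, placed by the percent of its bases covered by day 2 H3ac peaks (x axis) and by day 4 H3ac peaks (y axis), with triangles for the 95 domains that hold an HDAC1 peak and circles for the 205 that do not. Most points lie above the dashed line of equal cover (206 domains), and Meis1 and Zic4 lie on the left edge with no day 2 peak.

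The 20 widest domains were between 7027 and 13613 bp. The widest covered the whole of Skida1 (chr2:18038221-18051833). On day 2 it held 3 peaks of 558, 491 and 421 bp that covered 10.8% of it, and on day 4 it held 4 peaks, the largest of 4755 bp, that covered 75.9%. It held no HDAC1 peak. The next, at 10551 bp, lay over Rhof, a gene of a small GTPase, and Setd1b, a histone H3 lysine 4 methyltransferase. With 6 day 2 peaks it held the most of any domain, and its cover was higher on day 2 (63.7%) than on day 4 (46.4%). The Sox2 domain of 10001 bp held 3 day 2 peaks of 946, 1955 and 648 bp and 3 day 4 peaks of 1515, 3740 and 832 bp. Its cover was 35.5% on day 2 and 60.9% on day 4, and 1 HDAC1 peak of 300 bp lay at chr3:34648855-34649154, before the gene start. Another domain of 6188 bp lay over the noncoding Sox2ot, 4524 bp away, with 1 day 2 and 1 day 4 peak.

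Zic2 (8225 bp), a zinc finger factor of the primed epiblast and neural plate, held 2 day 2, 2 day 4 and 3 HDAC1 peaks. Tgif1 (7406 bp), a TALE homeodomain corepressor of TGF-beta signalling, held 5 day 2, 3 day 4 and 5 HDAC1 peaks, the most HDAC1 peaks of any domain, with 79.1% and 80.4% of it covered on days 2 and 4. Sall1 (7357 bp), a zinc finger factor expressed in stem cells and in many embryonic tissues, held 3 day 2 peaks and 4 day 4 peaks. Other domains among these 20 lay over Malat1 (8616 bp), an abundant nuclear noncoding RNA, and over Igf2bp1, Mex3a, Zfp36l1 and Trim71, which encode RNA-binding proteins. Malat1 held 3 peaks of each list, among them a day 4 peak of 5863 bp and an HDAC1 peak of 947 bp, the widest HDAC1 peak in any domain. Kdm2b (7556 bp), the CpG island reader of a variant Polycomb complex, was covered to 56.4% on day 2 and 96.4% on day 4. Fzd10 (7359 bp), a Wnt receptor, was covered to 8.74% and 39.6%.

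By the days with peaks inside, 263 domains (87.7%) held peaks of both days, 33 (11.0%, 7.94 to 15.0) of day 4 only, 3 (1.00%) of day 2 only and 1 (0.333%) of neither. Over all day 6 peaks these shares were 70.7%, 10.6%, 8.92% and 9.84%. The share with day 4 only was thus near that of all day 6 peaks, and the shares with day 2 only and with neither were below it. A wider region has more room for an earlier peak. In the next 300 peaks by width, day 2 only made up 0.667% and neither 1.00%, so these low shares were not particular to the domains. Day 4 only made up 6.67% (4.36 to 10.1) of these next 300, less than in the domains, with overlapping intervals. The day 4 only share depended on how many peaks the lists held. It was 17.0% of domains and 11.0% of the other peaks with the higher-scoring 50% of each list, and 23.3% and 15.7% when each list was limited to its 5282 top-scoring peaks.

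The 33 domains with day 4 only had a median width of 4706 bp and a median day 4 cover of 45.9%. For 27 of them the nearest day 2 peak was more than 10 kb away. That distance is not given here for the other day 6 peaks with day 4 only, so this count has no background beside it. The Meis1 domain (7682 bp) was covered to 93.6% by a single day 4 peak of 7843 bp, the widest of the whole day 4 list, and this peak ran from inside the gene over the promoter printed above. Zic4 (7739 bp) held 1 day 4 peak of 1074 bp that covered 13.9%. Another domain (6848 bp) overlapped both Zic1 and Zic4, reached 111 bp upstream of the Zic1 start into the promoter printed above, and held day 4 peaks of 1076 and 1369 bp. Hoxb2 (7413 bp), a hindbrain patterning gene, held day 4 peaks of 1216, 681 and 3487 bp that covered 72.6%. Hoxa3 lay under 2 domains of 6601 and 6360 bp, the latter with 5 day 4 peaks, the most of any domain. Id1 and Id2, inhibitors of bHLH factors and targets of BMP signalling, Cdh2, the neural cadherin, Nr2f1, Pou3f3 and Pax7, neural progenitor factors, Efnb1, an ephrin ligand, and Cdon, a cell surface co-receptor for hedgehog proteins, were also in this class. So were domains over Purb, over Col2a1, over Glra1 and over Urm1 with Cercam, and not every member of the class is named here.

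The genes under the day 4 only domains were compared with those under the both-day domains. A member of 5 developmental lists (neural progenitor, Hox, TALE, primed epiblast, and BMP and Id genes), a grouping made after the values were seen, was overlapped by 15 of the 33 (45.5%, 29.8 to 62.0) and by 17 of the 263 domains with both days (6.46%, 4.07 to 10.1). Among the other day 6 peaks these shares were 1.62% and 0.410%. Neighbouring domains, such as the 2 over Hoxa3 and those over Hoxb2 and Hoxb3, were counted separately. The intervals do not take this into account. A member of 4 housekeeping lists (ribosomal proteins, hnRNP and splicing factors, glycolysis, and replication-dependent histones) was overlapped by 0 of the 33 (0 to 10.4%) and 30 of the 263 (11.4%, 8.11 to 15.8). These intervals overlap between 8.11 and 10.4, which does not show equal shares, and the difference was not tested. Among the other day 6 peaks the housekeeping shares were 1.26% and 3.12%. A start or end of a protein-coding gene lay in 21 of the 33 domains (63.6%) and in 82.9% of those with both days, and 11 of the 33 lay within a gene body.

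Of the 3 domains with day 2 only peaks, the one over Fam102a (4076 bp) held a single day 2 peak that covered 13.4% of it. Another, chr15:98990385-98994197, lay over no gene in the table and held 3 day 2 peaks that covered 43.7%. The domain with neither lay over Mir99ahg and 9430053O09Rik (chr16:77417892-77421865, 3974 bp) and had a day 6 score of 1013.14, above the median of 275 for the domains. Its nearest day 4 peak was 17369 bp away, its nearest day 2 peak 176960 bp, and another day 6 peak lay 254 bp away.

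Some domains had another domain nearby. Counting domains no more than 10 kb apart, 12 groups were found, 11 of 2 domains and 1 of 3, which together held 25 of the 300 domains (8.33%). A further day 6 peak of any width lay within 10 kb of 23.7% of domains and 23.9% of the other day 6 peaks. The group of 3 spanned 22783 bp over Hoxa2 and Hoxa3 with gaps of 66 and 2060 bp, and a single day 4 peak of 6549 bp bridged the 66 bp gap. The domain over Hoxa2 held 2 day 2 peaks (16.4% covered) and 4 day 4 peaks (78.1%), while the Hoxa3 domains held no day 2 peak. The Meis2 pair, 149 bp apart, was covered to 19.3% and 9.68% on day 2 and to 82.8% and 59.9% on day 4. The Tnrc18 pair stood 26 bp apart, the Igf2bp3 domain 35 bp from a domain with no gene in the table, the Zfp503 pair 111 bp, the Nr2f2 pair 759 bp and Zic2 and Zic5 8108 bp apart. In all, 36 domains (12.0%, against 16% of the other peaks) had another day 6 peak within 1 kb, so their number and width depend on where the peak caller ended each peak.

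A protein-coding gene was overlapped by 290 domains (96.7%, against 91.0% of the other peaks), and 361 genes were overlapped in all, 1.67% of the 21631 in the RefSeq table. A start or end of a protein-coding gene lay inside 241 domains (80.3%, 75.5 to 84.4) and 61.5% (60.2 to 62.8) of the other peaks, a share that a wider region raises by itself. Whole genes were contained in 24 domains (8.0%, against 1.05% of the other peaks). These 26 genes were short, with a median length of 2112 bp against 17329 bp over all genes. Among them were Sox2, Zic2, Hoxa2, Hoxb2, Fzd10, Irx5, Id1 and Sox4, the immediate early gene Ier2, the ribosomal protein genes Rpl30, Rps12 and Rpl10a, and the histone genes H4c8, H2ac20 and H2ac21. At least 2 genes were overlapped by 74 domains, and 9 genes were overlapped by at least 2 domains.

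The position of the domains around the gene start was asymmetric. In 156 domains with exactly 1 listed start, the domain reached a median of 1457 bp upstream and 2956 bp downstream, and it was longer downstream in 138 (88.5%, 82.5 to 92.6). In 2747 other peaks chosen the same way the medians were 592 and 1402 bp, and 90.1% were longer downstream, so the direction was shared and the reach was greater on both sides. The earlier peaks inside lay on both sides of the start. At the start itself a day 2 peak covered 49.4% of domains, compared with 55.8% at 500 bp upstream and 68.6% at 500 bp downstream. A day 4 peak covered 55.1% at the start, 62.2% at 500 bp upstream and 81.4% at 500 bp downstream. At 1 kb downstream the day 2 share was 67.9% in domains and 39.9% in the other peaks, and the day 4 share 85.3% and 51.0%. The start was bare with a peak on each side in 33 domains on day 2 (21.2%) and in 41 (26.3%) on day 4, against 9.83% and 7.35% of the other peaks. A region that reaches further on both sides has more room for such flanking peaks, so width raises this share by itself.

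**Figure D3:**
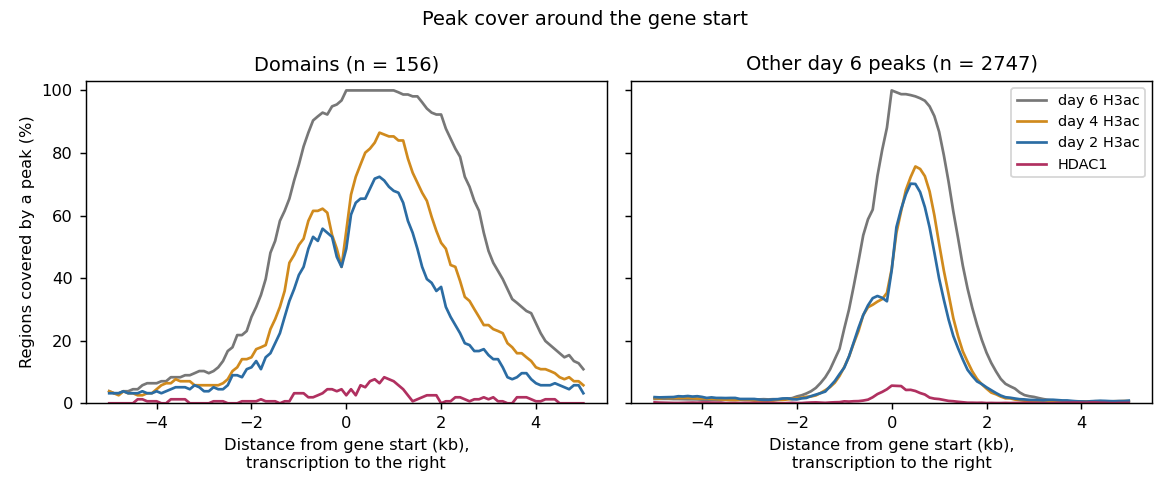
Lines give the percent of regions covered by a peak of each list (y axis) at each distance from the gene start in kb (x axis, transcription to the right), for 156 domains with 1 listed gene start (left) and 2747 other day 6 peaks (right). Both earlier H3ac profiles dip near the start in domains, with 49.4% on day 2 and 55.1% on day 4 at the start itself, and are highest downstream of it.

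HDAC1 was present in 95 domains (31.7%, 26.7 to 37.1), against 14.3% of all day 6 peaks. In the central 1 kb the share was 14.0% (10.5 to 18.4) in domains and 11.3% (10.5 to 12.2) in the other peaks, so at equal length the difference was within counting error. Per 10 kb there were 0.881 HDAC1 peaks in domains and 0.737 in the other peaks. The domains held 128 of the 5282 HDAC1 peaks (2.42%), with 1 peak in 71 domains, 2 in 17, 3 in 6 and 5 in 1. They were narrow, with a median of 352.5 bp against 311 bp over all HDAC1 peaks, and of similar score, 65.5 against 65.3. After Tgif1, the most were in the domains over Malat1, Zic2, Mex3a, Mycn, Auts2 and Arid4a, with 3 each. Mycn (6195 bp), the Myc family factor of progenitor cells, was covered to 81.3% on day 2 and 61.4% on day 4.

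Most HDAC1 peaks inside domains also overlapped an H3ac peak of day 2, as did most of those inside the other day 6 peaks. Both groups were selected for lying in regions acetylated on day 6. For the whole list of 5282 HDAC1 peaks the share was lower, at 27.7% (1464), so most HDAC1 peaks lay outside the day 2 H3ac peaks. An H3ac peak of day 2 overlapped 111 of the 128 (86.7%, 79.8 to 91.5) and 612 of the 744 that lay in other day 6 peaks alone (82.3%, 79.3 to 84.8), which did not differ beyond counting error. A day 4 peak overlapped 116 (90.6%, 84.3 to 94.6) in domains and 614 (82.5%, 79.6 to 85.1) in the other day 6 peaks. These intervals overlapped only between 84.3 and 85.1, which does not show equal shares, and the difference was not tested. The midpoint was within 1 kb of a start or end of a protein-coding gene in 71 (55.5%, 46.8 to 63.8) of those in domains. The same held for 591 (79.4%, 76.4 to 82.2) of those in the other day 6 peaks, which are narrower. Over all HDAC1 peaks this share was 32.7%. Domains with an HDAC1 peak had a median day 2 cover of 61.6% (quartiles 46.6 and 76.9), and those without it 41.4% (15.5 and 63.6), with wide overlap between the groups. On day 4 the medians were 70.0% and 58.4%. The other day 6 peaks showed the same order on day 2, with 59.3% and 46.4%. The widths of the domains were close, with medians of 4353 bp with HDAC1 and 4441 bp without. The domain over Glra1, a glycine receptor gene, was the only one with an HDAC1 peak and no day 2 H3ac peak, and this HDAC1 peak (chr11:55607769-55608122) had a score of 1211.63, the 35th highest of all HDAC1 peaks.

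The genes under the domains came from several functional groups, counted here as members overlapped by a domain and members overlapped by any day 6 peak. Of all 21631 protein-coding genes 361 (1.67%) and 5386 (24.9%) were so overlapped. Because long genes and marked genes are overlapped more often, the second count is the one to set beside the first. Of 44 neural progenitor genes, 11 were under a domain and 19 under any day 6 peak. They included Pax6, the eye and forebrain factor, in a domain of 4927 bp with 3 day 2 and 2 day 4 peaks, Irx5 (6192 bp, 21.5% covered on day 2 and 70.7% on day 4), and Gli3, the hedgehog pathway factor (5405 bp). Of 39 Hox genes, 5 were under a domain, and the same 5 were the members under any day 6 peak, among them Hoxa2, Hoxa3, Hoxb2 and Hoxb3. Of 11 TALE factors and Hox partners, 5 were under a domain and 9 under any peak. Pknox2, among them, was covered to 11.9% on day 2 and 95.7% on day 4. Both SoxC genes with a day 6 peak, Sox4 and Sox11, lay under domains of 5279 and 5318 bp.

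Among 28 pluripotency genes, 5 were under a domain (Sox2, Sall1, Sall4, Lin28a and Trim71) and 11 under any day 6 peak. Lin28a, the RNA-binding inhibitor of let-7 maturation, held 3 day 2 peaks, 3 day 4 peaks and 1 HDAC1 peak. Pou5f1 and Nanog, core factors of pluripotent cells, and Sox1, a neural plate factor, had no overlapping day 6 peak. Among 16 primed epiblast genes, 6 were under a domain and 7 under any peak. No domain lay over any of 21 neuron genes, of which 1 had a day 6 peak, and of 24 mesendoderm genes only Cxcr4, a chemokine receptor gene, lay under a domain. None of 1110 olfactory receptor genes, a control list, was overlapped by a day 6 peak.

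Genes of signalling pathways were counted in the same way. Wnt signalling had 4 of 36 members under a domain and 12 under any day 6 peak, and the 4 were the receptors Fzd10, Fzd7 and Fzd2, and Axin2, a negative feedback target. BMP and Id genes had 5 of 21 under a domain and 10 under any peak, the 5 being the inhibitory Smads Smad6 and Smad7, the receptor Bmpr2, Id1 and Id2. Smad6 was covered to 18.0% on day 2 and 25.1% on day 4, and Smad7 to 19.9% and 58.6%. FGF and ERK signalling had 5 of 33 under a domain and 15 under any peak, the 5 being Ier2, the feedback phosphatase Dusp6, the feedback inhibitor Spry2, Jun and Etv1. Spry2 was covered to 46.5% on day 2 and 97.2% on day 4, the highest day 4 cover of any domain, and held 2 HDAC1 peaks. Dusp6 was high on both days, with 87.4% and 90.5%. Notch signalling had 1 of 24 under a domain (Maml3, a coactivator) and 9 under any peak, and Nodal and TGF-beta signalling had 1 of 26 (Smad7) and 10.

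Chromatin genes were among the wide domains as well. Of 28 Polycomb and Trithorax genes, 7 were under a domain and 20 under any day 6 peak. They were Kdm2b, Jarid2, the methyltransferase gene Kmt2d, the Polycomb subunit genes Ring1 and Pcgf2, Auts2 and Asxl1. Of 37 genes of histone acetylation and HDAC complexes, 4 were under a domain (Sin3a, Brd2, Ncor1 and the acetyltransferase gene Kat6b) and 24 under any peak. Sin3a, the scaffold of an HDAC1 complex, held 4 peaks on each day and no HDAC1 peak, while Ncor1, a nuclear receptor corepressor, held 2 HDAC1 peaks.

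Housekeeping genes lay under domains as well. Of 79 cytosolic ribosomal protein genes, 74 had a day 6 peak and 12 a domain, all of 4707 bp or less. Rpl30, the widest of them, was covered to 89.4% on day 2 and 41.6% on day 4, and Rps12 to 83.8% and 63.1%. Of 36 hnRNP and splicing factor genes, 32 had a day 6 peak and 10 a domain, from Hnrnpa2b1 (6514 bp) and Hnrnpa1 (6013 bp) to Ddx5 (3793 bp). Each of these 10 genes had peaks inside on both days. Glycolysis and glucose transport had 5 of 23 under a domain and 13 under any day 6 peak, the 5 including Gapdh, Pkm and Eno1, each with 1 HDAC1 peak. No domain lay over the 27 genes of the cell cycle list, 18 of which had a day 6 peak. That list leaves out Ccnd1, counted with the Myc network and growth genes, and Wee1. Both lay under domains, the one over Ccnd1 being 6073 bp wide. Of 64 replication-dependent histone genes, 48 had a day 6 peak and 5 lay under 2 domains. Slc3a2, the heavy chain of an amino acid transporter, was the only one of 22 ATF4 stress and amino acid genes under a domain, while 13 had a day 6 peak, and it lay under 2 domains, the wider of which had the highest score of the day 6 list (2597.60).

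**Figure D4:**
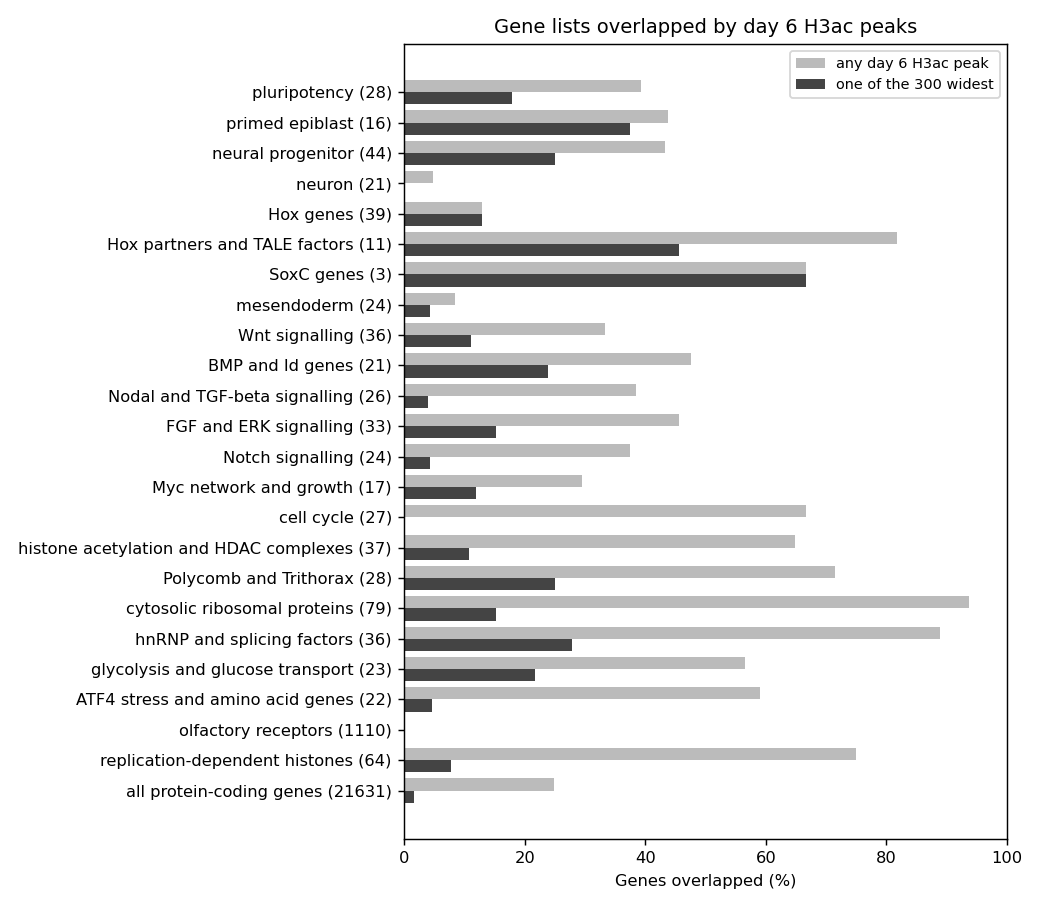
Bars give the percent of the genes of each list (number of genes in brackets) overlapped by any day 6 H3ac peak (light) and by 1 of the 300 widest (dark). For Hox genes both bars stand at 12.8%, for ribosomal protein genes they stand at 93.7% and 15.2%, and for all protein-coding genes at 24.9% and 1.67%.

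Among the domains, 10 overlapped no protein-coding gene and 8 of these overlapped a noncoding one. Besides Malat1, Sox2ot and the Mir99ahg region, these were domains over Gm9734 with 2810410L24Rik, over C130071C03Rik, over a cluster of tRNA genes on chromosome 3, over Mir124a-3 and over Mir130a with Gm19426. The Mir124a-3 domain (4850 bp) held 1 day 2 peak, 4 day 4 peaks and 1 HDAC1 peak, with 13.7% covered on day 2 and 74.0% on day 4. miR-124 is a microRNA of neurons. Of 1005 microRNA hairpin genes in the RefSeq table, 14 lay inside 12 domains. With Mir124a-3, which is only in the gene table, 13 domains (4.33%, 2.55 to 7.27) held a microRNA gene. Of the other day 6 peaks 0.724% did, and a wider region raises this share by itself. The pair shown here is the microRNA made from genes in 2 of the domains and 1 whose domain lay over no protein-coding gene, with the seed (bases 2 to 8) in capitals.
mmu-miR-219a-5p: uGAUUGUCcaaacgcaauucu
mmu-miR-130a-3p: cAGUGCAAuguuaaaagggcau
The miR-219a-5p sequence is encoded by Mir219a-1 in the domain over Ring1 (4694 bp, 1 day 2 and 2 day 4 peaks) and by Mir219a-2 in the domain over Urm1 and Cercam (4465 bp, no day 2 and 1 day 4 peak), and the microRNA is known for its part in oligodendrocyte formation. The Mir130a domain (4378 bp) held 3 day 2 peaks, 2 day 4 peaks and 1 HDAC1 peak.

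The widest peaks of the earlier days were set against the domains. Of the 300 widest day 2 peaks, which were 2011 to 6081 bp, 72 (24.0%) overlapped a domain, and they touched 71 of the 300 domains (23.7%). Of the 300 widest day 4 peaks, 2212 to 7843 bp, 118 (39.3%) overlapped a domain, and they touched 116 (38.7%). Any day 6 peak was overlapped by 76.7% and 80.0% of these wide earlier peaks. Over all peaks of the 2 lists, 596 of 17357 on day 2 (3.43%) and 604 of 12943 on day 4 (4.67%) overlapped a domain.

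At the limit of the 300, the last domains were those over Rrm2 (3790 bp), Hnrnpll (3776 bp) and Sdk2 (3773 bp). The first peaks left out were those over Epc1 (3772 bp), Cks1b with Shc1 (3769 bp) and Ubald1 (3767 bp), so 1 bp separated the groups. Rrm2, Hnrnpll, Epc1, Cks1b and Ubald1 all held day 2 and day 4 peaks, and Sdk2 held 2 day 4 peaks and no day 2 peak.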

How the data were processed

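The submitters' processing notes name Bowtie 0.12.8 as the aligner and mm10 as the build. The deposited lists give chromosome, start, end, name and score for the peaks of each ChIP library. The names of the peaks carry the prefix MACS, a peak caller. Its version and threshold, and whether the 4 inputs served as controls, are not stated in the sources at hand. The score is the authors' value per peak, on a scale that is not stated, and served only to rank peaks within a deposited list.

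Peaks on chromosomes 1 to 19 and X were used, ties in width were ordered by chromosome and start, and an earlier or HDAC1 peak counted as inside a domain when they shared at least 1 bp. Genes were matched by position to the RefSeq gene table of GRCm38.p6, which gives gene bodies without exons, so no split into exons, introns and UTRs was made. The RefSeq promoter table listed a start for 17274 of the 21631 protein-coding genes, and the start profile and promoter windows rest on those. The 8 domains on chromosome 18 entered no start or promoter value, which leaves 292 of the 300. Shares have Wilson intervals at the 95% level. The overlap counts were tested on simulated data. Python 3.11.15, numpy 2.4.6, pandas 2.3.3, scipy 1.17.1 and matplotlib 3.10.9 were used.

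The domains and gene lists were chosen with earlier results of these data known. Named genes were those of the 20 widest domains, the 5 widest of each class, the 5 domains with most peaks of each list, up to 5 members per gene list by width, the peaks around rank 300 and 10 candidate genes. Any other gene named, the groupings of gene lists, the neighbour shares and the counts of bare starts were chosen after their values were seen. Alternatives changed the overlap rule, the length of the lists, the number of domains and the joining of neighbouring peaks. Some genes under domains are counted but not reported by name here.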

Additional observations from a re-analysis of the deposited data

How the results depend on the processing

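Requiring 50% of the inner peak, or its midpoint, inside the domain left every result within the interval of its reported value. Over all 7 alternatives 40 of 62 values stayed within it. With the higher-scoring 50% of each list, the share of domains with a peak was 81.33% on day 2, 95.67% on day 4 and 19.67% for HDAC1, the mean number 1.493 and 1.55, and the cover 39.7% and 54.58%. With only the 5282 top-scoring peaks of every list, the shares were 72% on day 2 and 92.33% on day 4, the means 1.163 and 1.387, the cover 35.3% and 51.74%, and the share with neither 4.667%. With the 100 widest domains, the means were 2.23 and 2.47, the day 2 cover 40.48% and the share with neither 0%, and with the 600 widest both means were 1.853. With day 6 peaks within 1 kb joined first, the day 4 mean was 2.197 and the day 4 cover 58.09%. In each of these settings the cover was higher on day 4 than on day 2. No paired analysis was possible because each target and day had 1 library, and for the same reason no library could be left out. A peak list gives no depth, so a domain without an earlier peak can still have been acetylated below the caller's threshold, and the effect of depth on the number and width of peaks was not tested.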
